A study of Mus musculus with 6 samples.

Results

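The genes that move zinc across membranes and the metallothioneins that bind it in the cytosol were followed in knee joint cartilage of mice at postnatal day 6. The 10 genes described here are the importers *Slc39a10*, *Slc39a6*, *Slc39a1*, *Slc39a8*, *Slc39a13* and *Slc39a14*, the exporters *Slc30a1* and *Slc30a5*, and the metallothioneins *Mt1* and *Mt2*, out of 55487 genes in the count table. They were picked by name from earlier results of the same comparison, so their fold changes are a description of these libraries, and the p-values beside them are no independent evidence. All 10 passed the filter on low counts, and 17175 genes passed it in all. The mutants were *Hbb*-cKO mice, in which β-globin was conditionally deleted in chondrocytes, and they were compared with wild-type (WT) mice of the same age, with 3 libraries of poly(A) RNA in each group. The floxed allele of the study takes in *Hbb-bs* and *Hbb-bt* on a C57BL/6J background. The background of the sequenced WT mice is not stated. The study used both *Prx1-Cre*, which is active in limb mesenchyme, and tamoxifen-inducible *Col2a1-Cre*ERT2, which is active in chondrocytes. Its text gives the name *Hbb*-cKO to the cross with *Col2a1-Cre*ERT2, and the labels of the sequenced mutants name a conditional knockout in chondrocytes. For the sequenced mice, neither the labels nor the methods state which driver was used, how many mice went into a library, or whether WT mice carried a floxed allele or a Cre or received tamoxifen. The p-values therefore measure only the spread between libraries, which may be partly technical.

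Library totals were 17405688 to 20969914 counts in *Hbb*-cKO and 16544800 to 17475496 counts in WT. The summed level of the targeted genes *Hbb-bs* and *Hbb-bt* was 4195, 5444 and 5014 CPM (counts scaled to library size) in *Hbb*-cKO and 16811, 12449 and 6912 CPM in WT. The groups did not overlap, but transcript remained in *Hbb*-cKO. The log2 fold changes of *Hbb-bs* and *Hbb-bt* were -1.28 and -1.32. Those of *Hba-a1*, *Hba-a2* and *Alas2*, erythroid genes that were not targeted, were -1.31, -1.43 and -1.60. Of 8 erythroid markers, 6 had a negative and 2 a positive value. Deletion and less erythroid RNA thus cannot be told apart here. All 7 chondrocyte markers were present in every library, with *Col2a1*, the main collagen of cartilage, at 11307, 38294 and 28358 CPM in *Hbb*-cKO and 26096, 29308 and 22280 CPM in WT. *Hbb*-cKO replicate 1 was the lowest in this marker. Skeletal muscle was part of every sample, and the summed level of its 6 markers was 21098 to 29422 CPM in *Hbb*-cKO and 26455 to 42874 CPM in WT, with the highest value in WT replicate 3. The sex of the mice differed between libraries. Y-linked genes had 1010, 2907 and 1242 counts in *Hbb*-cKO and 0, 0 and 2109 counts in WT, and *Xist*, which females express, had 5052, 6 and 8079 counts in *Hbb*-cKO and 10430, 8739 and 2725 counts in WT. *Hbb*-cKO replicates 1 and 3 and WT replicate 3 thus held many counts of both kinds, as a pool of both sexes would. In such bulk tissue, fewer cells of a type and less RNA per cell cannot be told apart.

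Zinc enters the cytosol through the ZIP proteins, encoded by the *Slc39a* genes, and leaves it for the outside or for organelles through the ZnT proteins, encoded by the *Slc30a* genes. Free zinc is kept low by metallothioneins, small cysteine-rich proteins that also bind copper and cadmium. The transcription factor MTF-1 senses zinc and binds metal response elements, through which it raises metallothioneins and *Slc30a1*, and in the mouse it represses *Slc39a10*. In cartilage, zinc is a cofactor of matrix proteases and of alkaline phosphatase, and in mouse osteoarthritis models ZIP8 and MTF-1 in chondrocytes raise such proteases. Loss of ZIP13 in humans causes a form of Ehlers-Danlos syndrome with short stature, and mice without ZIP14 grow poorly.

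*Slc39a10* was the member with the largest difference relative to its error. It encodes ZIP10, an importer of the plasma membrane, and lies at chr1:46807544-46892852 on the minus strand (GRCm38). The noncoding gene Gm28151 shares 951 bases of the locus on the same strand. Gm28151 had 15, 30 and 48 counts in *Hbb*-cKO and 16, 20 and 26 counts in WT. Gm37393 shares 3870 bases on that strand and had 0 counts in every library. The level of *Slc39a10* was 26.1, 27.3 and 23.9 CPM in *Hbb*-cKO, from 460, 544 and 507 counts, and 55.3, 44.8 and 51.5 CPM in WT, from 923, 736 and 893 counts. The highest *Hbb*-cKO library was thus well under the lowest WT library, and the means were 25.8 ± 0.981 CPM in *Hbb*-cKO, against 50.5 ± 3.08 CPM in WT (s.e.m., n = 3 each). The *Hbb*-cKO mean was 51.0% of the WT mean, a log2 fold change of -0.97 with a standard error (SE) of 0.12. *Slc39a10* fell in *Hbb*-cKO by edgeR's quasi-likelihood test, with a Benjamini-Hochberg adjusted p of 0.0464 over all 17175 genes, and by DESeq2 with an adjusted p of 7.65e-07. Its adjusted p in edgeR was close to the threshold of 0.05. When each of the 6 libraries was left out in turn, the log2 fold change stayed between -1.04 and -0.89, but the call held only without WT replicate 2 (adjusted p = 0.0397) and the adjusted p was 0.0594 to 0.280 without any of the other 5. With the factors of the relative log expression (RLE) method, or without the globin genes in the TMM factors, the adjusted p was 0.0513. It was 0.272 with the muscle score and 0.0618 with Y-linked expression as a covariate, and 0.214 with the replicate number as a block. The call was lost in these fits too.

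**Figure D1:**
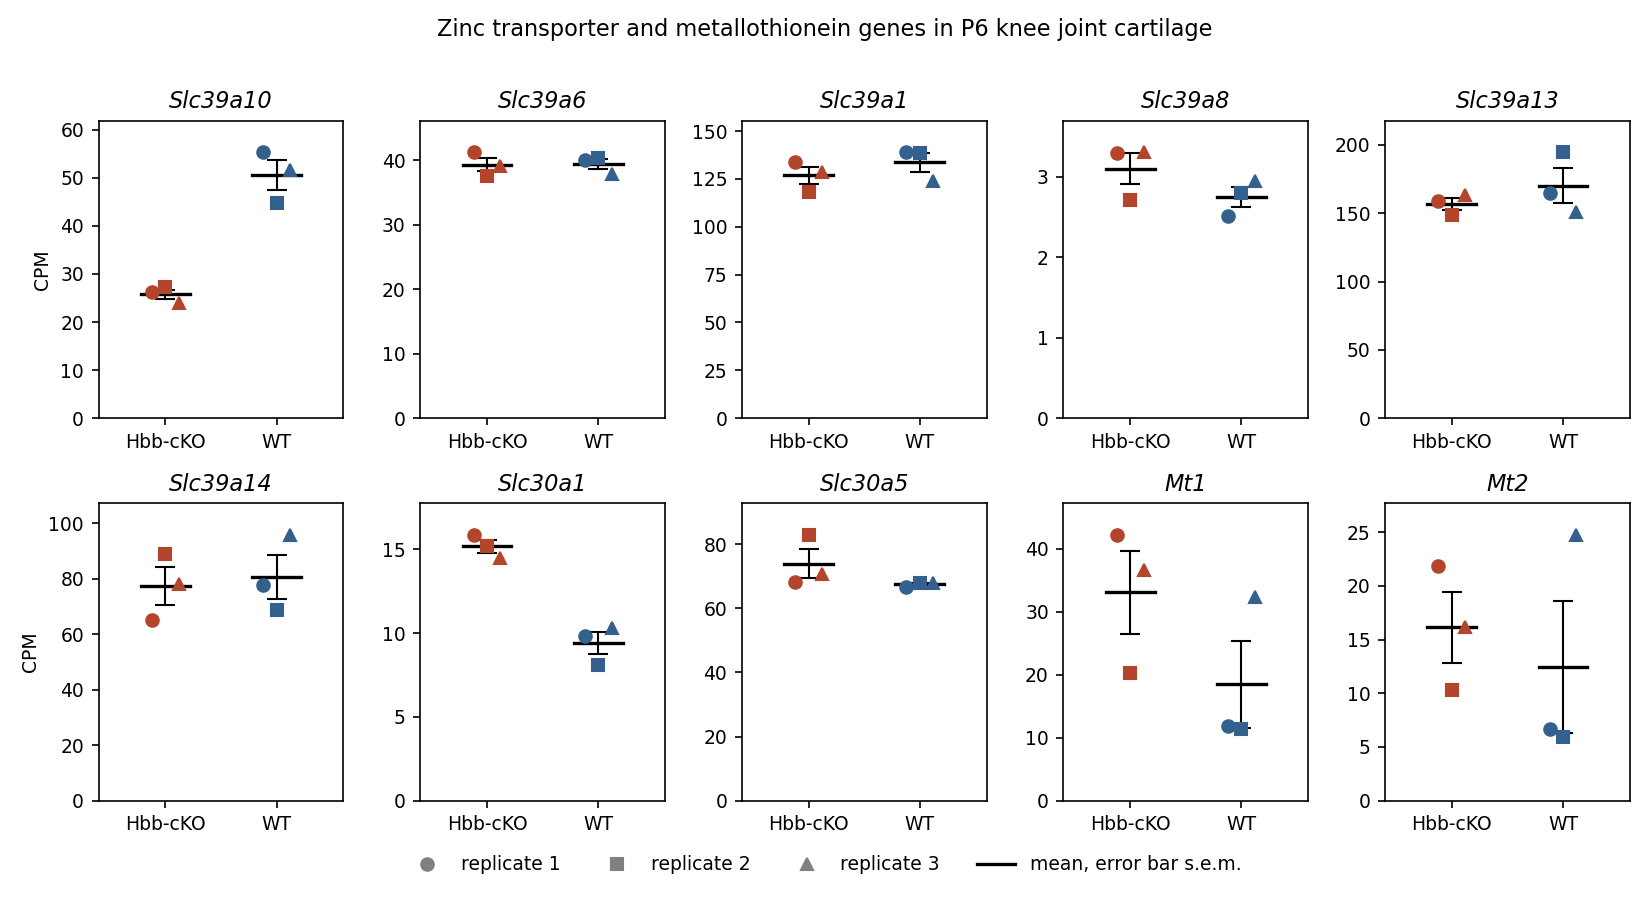
Level of each of the 10 genes in CPM (vertical axis, from 0) in *Hbb*-cKO (left) and WT (right), with 1 point per library, its shape showing the replicate, and a line and bar for the mean and s.e.m. of 3 libraries. The 2 groups of *Slc39a10* lie apart at 23.9 to 27.3 CPM and 44.8 to 55.3 CPM, those of *Slc30a1* lie apart in the other direction, and *Mt1* and *Mt2* overlap because of WT replicate 3.

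The libraries differed in other ways that could be set beside *Slc39a10*. The summed level of 8 erythroid markers, of which the targeted globins and α-globins make up most, was 8807, 11748 and 10515 CPM in *Hbb*-cKO and 36865, 26881 and 13459 CPM in WT. WT replicate 3 was the lowest of the WT libraries in this sum but lay above every *Hbb*-cKO library. The erythroid sum thus went with genotype, as *Slc39a10* did. Of the 8 markers, 6 had a negative and 2 a positive log2 fold change, where 47.5% of all tested genes had a positive one. The 2 were *Klf1* at 1.15 (SE 0.87) and *Slc4a1* at 0.29 (SE 0.47), and neither was under 0.05 before adjustment in edgeR. Of the 8 markers, 5 were lower in *Hbb*-cKO without overlap, where 8.96% of all tested genes were. The same 5 passed in DESeq2. In the libraries that held both *Xist* and Y-linked counts, *Slc39a10* was 26.1 and 23.9 CPM in *Hbb*-cKO replicates 1 and 3 and 51.5 CPM in WT replicate 3. Only 1 WT library was of this kind. All 6 proliferation markers had groups that did not overlap, none of them at 0, with a summed level of 382 to 435 CPM in *Hbb*-cKO and 220 to 276 CPM in WT. None of the 6 passed in edgeR, all 6 were under 0.05 before adjustment, and 2 passed in DESeq2. Of all tested genes, 8.7% were higher in *Hbb*-cKO without overlap, 10.1% were under 0.05 before adjustment and 1.45% passed in DESeq2. Among the genes that passed in edgeR, *Ifi202b* averaged 6.92 CPM in the mutants and was absent from WT. *H2-Q1* was absent from the mutants and averaged 4.99 CPM in WT, and every other gene that passed was present in both groups. A difference in genetic background, if there was any, would go with genotype in these libraries. The part of background, of erythroid content or of proliferation in the level of *Slc39a10* was not tested.

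Each of the other importers had overlapping groups. *Slc39a13* encodes ZIP13, which works inside the early secretory pathway and matters for collagen-rich tissue. It had 159, 149 and 163 CPM in *Hbb*-cKO and 165, 195 and 151 CPM in WT, with overlapping groups and a log2 fold change of -0.12 (SE 0.13). The locus shares 4579 bases with the coding gene *Psmc3* on the other strand. *Psmc3* had 3073, 3038 and 3547 counts in *Hbb*-cKO and 2547, 3028 and 2800 counts in WT. The strand setting of the counting is not given, so how reads of the shared part were assigned is not known. *Slc39a1*, a widely expressed plasma membrane importer, had 134, 118 and 129 CPM in *Hbb*-cKO and 139, 139 and 124 CPM in WT, a log2 fold change of -0.07 (SE 0.11). *Slc39a14*, whose protein ZIP14 also carries iron and manganese, varied more between libraries than between genotypes. Its level was 65.3, 89.0 and 78.0 CPM in *Hbb*-cKO and 77.6, 68.6 and 95.8 CPM in WT. *Slc39a6* encodes ZIP6, the closest relative of ZIP10, with which it can form a heteromer. It had 41.3, 37.6 and 39.2 CPM in *Hbb*-cKO and 40.1, 40.4 and 37.9 CPM in WT, so that the closest relative of *Slc39a10* had means of 39.4 ± 1.05 CPM in *Hbb*-cKO, against 39.5 ± 0.790 CPM in WT (s.e.m., n = 3 each). The *Slc39a6* locus shares 952 bases with the coding gene *Elp2* on the other strand, and the same limit holds. *Elp2* had 1110, 1399 and 1344 counts in *Hbb*-cKO and 1084, 1113 and 1107 counts in WT.

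*Slc39a8*, the gene of the importer ZIP8, was the lowest of the 10. It had 58, 54 and 70 counts in *Hbb*-cKO and 42, 46 and 51 counts in WT, which is 3.30, 2.71 and 3.30 CPM in *Hbb*-cKO and 2.52, 2.80 and 2.94 CPM in WT. The groups overlapped, and the log2 fold change of 0.17 was smaller than its SE of 0.21.

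Of the exporters, *Slc30a1* had the larger difference. Its protein ZnT1 is the main zinc exporter of the plasma membrane, and the gene lies at chr1:191906767-191913247 on the plus strand. *Slc30a1* had 15.9, 15.2 and 14.5 CPM in *Hbb*-cKO, from 279, 303 and 307 counts, and 9.82, 8.09 and 10.3 CPM in WT, from 164, 133 and 179 counts. The lowest *Hbb*-cKO library was above the highest WT library, and the mean in *Hbb*-cKO was 161% of that in WT. The log2 fold change was 0.69 (SE 0.15). *Slc30a1* did not pass in edgeR, where the p was 0.00169 before and 0.182 after adjustment, whereas DESeq2 gave an adjusted p of 0.0193. An antisense gene, 1700034H15Rik, overlaps 761 bases of the locus, but it had only 6 to 17 counts in *Hbb*-cKO and 5 to 17 in WT. *Slc30a5*, which loads zinc into the secretory pathway for enzymes such as alkaline phosphatase, had 68.3, 82.9 and 70.7 CPM in *Hbb*-cKO and 66.8, 68.0 and 68.0 CPM in WT. The lowest *Hbb*-cKO value exceeded the highest WT value by less than the spread within *Hbb*-cKO, and the log2 fold change was 0.13 (SE 0.11).

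The importer *Slc39a10* and the exporter *Slc30a1* thus differed in opposite directions in the same libraries. For each count of *Slc30a1* there were 1.65, 1.8 and 1.65 counts of *Slc39a10* in *Hbb*-cKO, against 5.63, 5.53 and 4.99 in WT. These ratios are free of the library scaling, and they varied little within each genotype. Because the ratio combines 2 genes chosen for their difference, no test was made on it.

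**Figure D2:**
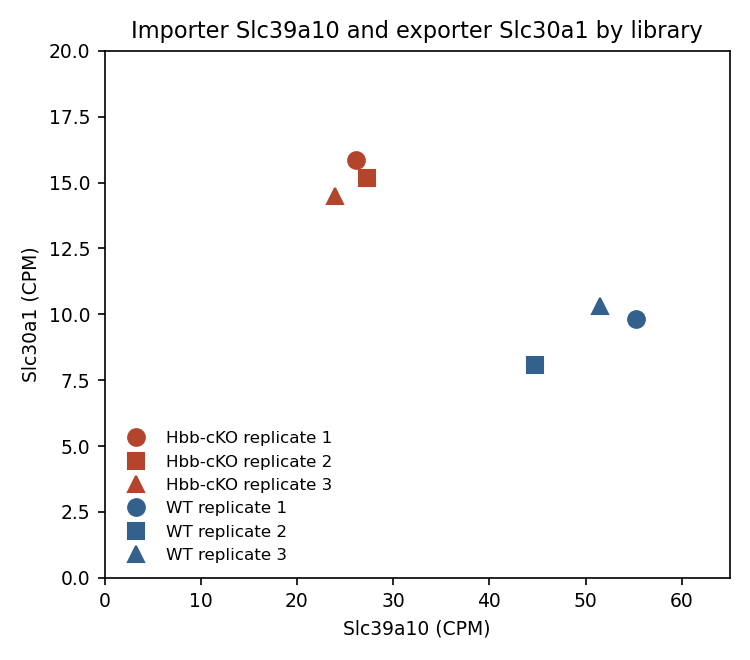
Level of the exporter gene *Slc30a1* (vertical axis, CPM) against that of the importer gene *Slc39a10* (horizontal axis, CPM), both axes from 0, with 1 point per library. The 3 *Hbb*-cKO libraries lie at the upper left, at 14.5 to 15.9 CPM of *Slc30a1*, and the 3 WT libraries at the lower right, at 8.09 to 10.3 CPM.

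The metallothionein genes *Mt1* and *Mt2* are neighbours on chromosome 8, at chr8:94179082-94180327 and chr8:94172664-94173568 on the plus strand. *Mt1* had 42.2, 20.3 and 36.6 CPM in *Hbb*-cKO and 11.8, 11.3 and 32.3 CPM in WT. WT replicates 1 and 2 were the lowest of all libraries, while WT replicate 3 lay among the *Hbb*-cKO values. The log2 fold change was 0.84 (SE 0.48, adjusted p = 0.616 by edgeR), and leaving out WT replicate 3 gave 1.51 (adjusted p = 0.205). It was 0.60 when WT replicate 1 or 2 was left out and 0.63 without *Hbb*-cKO replicate 1. Over all 6 fits that left out a library, its adjusted p was 0.205 to 0.938. *Mt2* had 21.9, 10.3 and 16.2 CPM in *Hbb*-cKO and 6.71, 5.96 and 24.7 CPM in WT. The highest value of *Mt2* was in WT replicate 3, and the log2 fold change was 0.37 (SE 0.60) with that library and 1.35 without it (adjusted p = 0.227). It was 0.07 without WT replicate 1, 0.05 without WT replicate 2 and 0.09 without *Hbb*-cKO replicate 1, with an adjusted p of 0.227 to 0.991 over all 6 fits that left out a library. Neither gene passed the threshold in edgeR or DESeq2, with or without WT replicate 3 in edgeR.

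Because the 2 mRNAs are alike in their coding part, their sum was also taken. It was 64.0, 30.6 and 52.8 CPM in *Hbb*-cKO and 18.5, 17.3 and 57.1 CPM in WT. *Mt2* made up 34.2%, 33.7% and 30.7% of the summed counts in *Hbb*-cKO and 36.2%, 34.5% and 43.4% in WT, so that WT replicate 3 also had the largest share of *Mt2*. An antisense gene, Gm45774, overlaps 749 bases of the *Mt2* locus and had 58, 43 and 54 counts in *Hbb*-cKO and 18, 13 and 106 counts in WT. Its counts were high and low in the same libraries as those of *Mt2*, which had 385, 206 and 343 counts in *Hbb*-cKO and 112, 98 and 429 counts in WT. The strand setting of the counting is not given, and without strand the reads of the pair cannot be told apart.

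WT replicate 3, the WT library with high metallothioneins, also stood apart in genes that glucocorticoids induce. Besides metals, glucocorticoids are among the known inducers of *Mt1* and *Mt2*. The summed level of 9 such genes was 459, 506 and 476 CPM in *Hbb*-cKO and 561, 454 and 1049 CPM in WT. *Zbtb16* had 2.1, 2.41 and 3.21 CPM in *Hbb*-cKO and 6.95, 2.43 and 30.7 CPM in WT. *Per1*, a clock gene that glucocorticoids raise, had 53.8, 73.2 and 68.3 CPM in *Hbb*-cKO and 81.3, 77.1 and 162 CPM in WT. *Cdkn1a*, a cell cycle inhibitor, had 132, 129 and 121 CPM in *Hbb*-cKO and 167, 147 and 237 CPM in WT. Of the 9 genes, 8 had a negative and 1 a positive log2 fold change, where 47.5% of all tested genes had a positive one. None passed the threshold in edgeR or DESeq2, and 3 were under 0.05 before adjustment, as 10.1% of all tested genes were. The part of these genes or of their inducer in the metallothionein level was not tested.

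Within *Hbb*-cKO, the metallothioneins were lower in replicate 2 than in replicates 1 and 3, and so were the summed markers of several other cell types, while the chondrocyte sum ran the other way at 14800, 50332 and 36236 CPM in *Hbb*-cKO, against 34133, 37653 and 29076 CPM in WT. The sums lowest in *Hbb*-cKO replicate 2 of the 3 *Hbb*-cKO libraries included those of skeletal muscle, osteoblasts, macrophages, B cells, neutrophils and fat cells. For osteoblasts the sum was 1099.5, 406 and 729 CPM in *Hbb*-cKO and 580, 771 and 986 CPM in WT. The summed level of 7 neutrophil markers was 120, 26.0 and 101 CPM in *Hbb*-cKO and 36.1, 25.2 and 16.4 CPM in WT, with none of the 7 at 0 in any library. All 7 had a positive log2 fold change and were under 0.05 before adjustment, while 0 passed in edgeR and 2 in DESeq2. Of all tested genes, 47.5% had a positive log2 fold change, 10.1% were under 0.05 before adjustment, 0.105% passed in edgeR and 1.45% in DESeq2. That of 4 adipocyte markers was 266, 129 and 242 CPM in *Hbb*-cKO and 222, 181 and 79.2 CPM in WT. WT replicate 3, with 57.1 CPM of metallothioneins, was the lowest of all 6 libraries in the neutrophil and fat cell sums. The part of these cell types in the *Hbb*-cKO values was not tested.

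**Figure D3:**
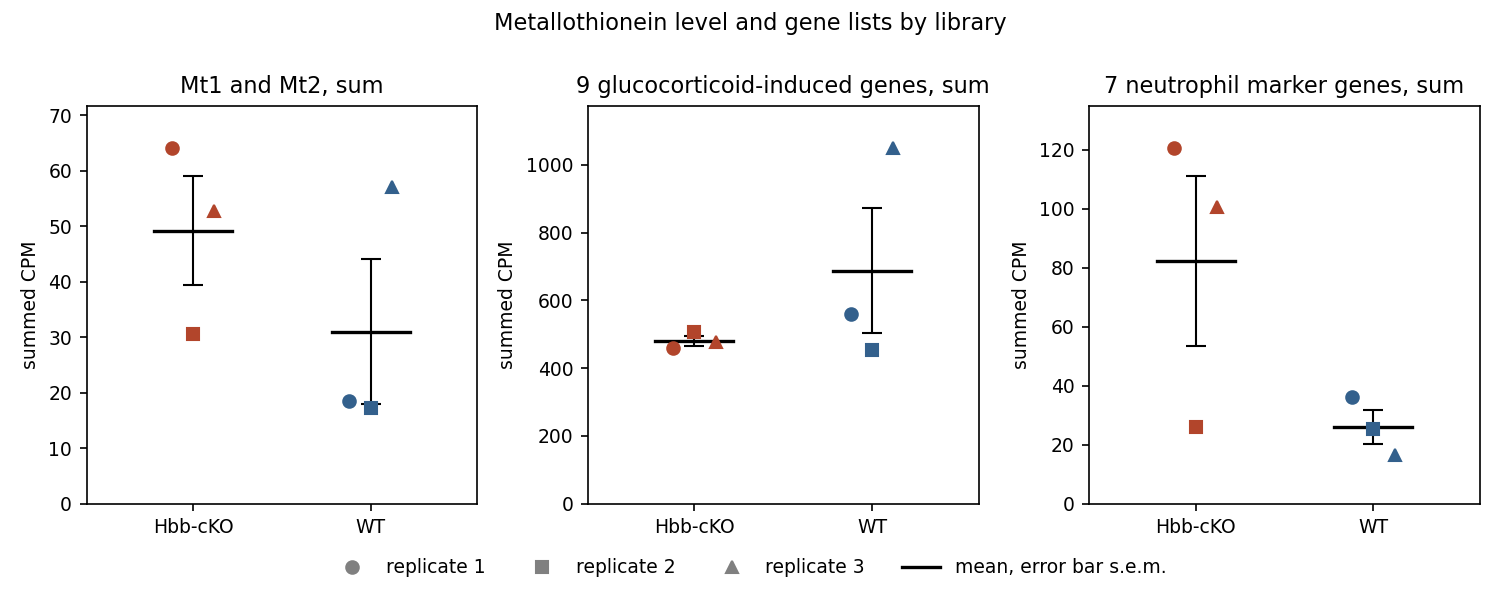
Summed level in CPM (vertical axes, from 0) of *Mt1* and *Mt2* (left panel), 9 glucocorticoid-induced genes (middle) and 7 neutrophil markers (right) in *Hbb*-cKO (left in each panel) and WT, with 1 point per library, its shape showing the replicate, and the mean and s.e.m. of 3 libraries. WT replicate 3 (triangle) is the highest WT library at 57.1 and 1049 CPM in the left and middle panels, and the lowest of all libraries at 16.4 CPM in the right panel.

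The DNA near the starts of these genes was searched for the core of the metal response element, the site that MTF-1 binds. The core was taken as TGCACNC or TGCGCNC on either strand, with overlapping matches counted once, in windows of 250 bases before to 50 bases after an annotated start (RefSeq, GRCm38). Of all 32851 such windows in the mouse genome, 25.7% held at least 1 match, 6.14% at least 2 and 1.31% at least 3. *Mt1* held 3 matches and *Mt2* held 4 in the RefSeq windows, and 0.295% of all windows held at least 4. GENCODE M21 also annotates later starts for both genes, and the same length of sequence at those starts held 5 matches for each. At least 5 matches were found in 0.0639% of the RefSeq windows of all genes. Later starts were searched for *Mt1* and *Mt2* only, so this share is no like-for-like background for them.

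The sequences of the *Mt1* matches and of those of *Slc30a1* are shown because these are the best known targets of MTF-1. Each is 23 bases on the plus strand of GRCm38, 5′ to 3′, and the capitals mark the match, which for a match on the other strand is its reverse complement. The first *Mt1* run lies at chr8:94179058-94179080, the second at chr8:94179083-94179105, the third at chr8:94179101-94179123, the fourth at chr8:94179165-94179187 and the fifth at chr8:94179179-94179201. The *Slc30a1* runs lie at chr1:191906730-191906752 and chr1:191906803-191906825.
Mt1 run 1: tcccgctgTGCACACtggcgctc
Mt1 run 2: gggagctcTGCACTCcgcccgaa
Mt1 run 3: ccgaaaagTGCGCTCggctctgc
Mt1 run 4: cgcctgctGGGTGCAaacccttt
Mt1 run 5: aaacccttTGCGCCCggactcgt
Slc30a1 run 1: ggggttccGAGTGCAaagcaaag
Slc30a1 run 2: tccgggccGAGCGCAgtcgccgc

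Runs 2 and 3 of *Mt1*, and runs 4 and 5, overlap in the printed letters. *Slc30a1* held 2 matches, on either side of its start. *Slc30a5* and *Slc39a13* held 1 match each, *Slc39a8* held 1 in 1 of its 2 windows, and *Slc39a1* held none. *Slc39a10* held none in its 2 RefSeq windows, but neither of them covers the start of the coding transcript in GENCODE M21, so no match there says nothing of that promoter. In all, 6 of the 8 members with a RefSeq window held a match, and *Slc39a6* and *Slc39a14* were not searched. This count is per gene over 10 windows, so the 25.7% of single windows is no like-for-like background for it. A match is a description of the letters and not of binding.

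**Figure D4:**
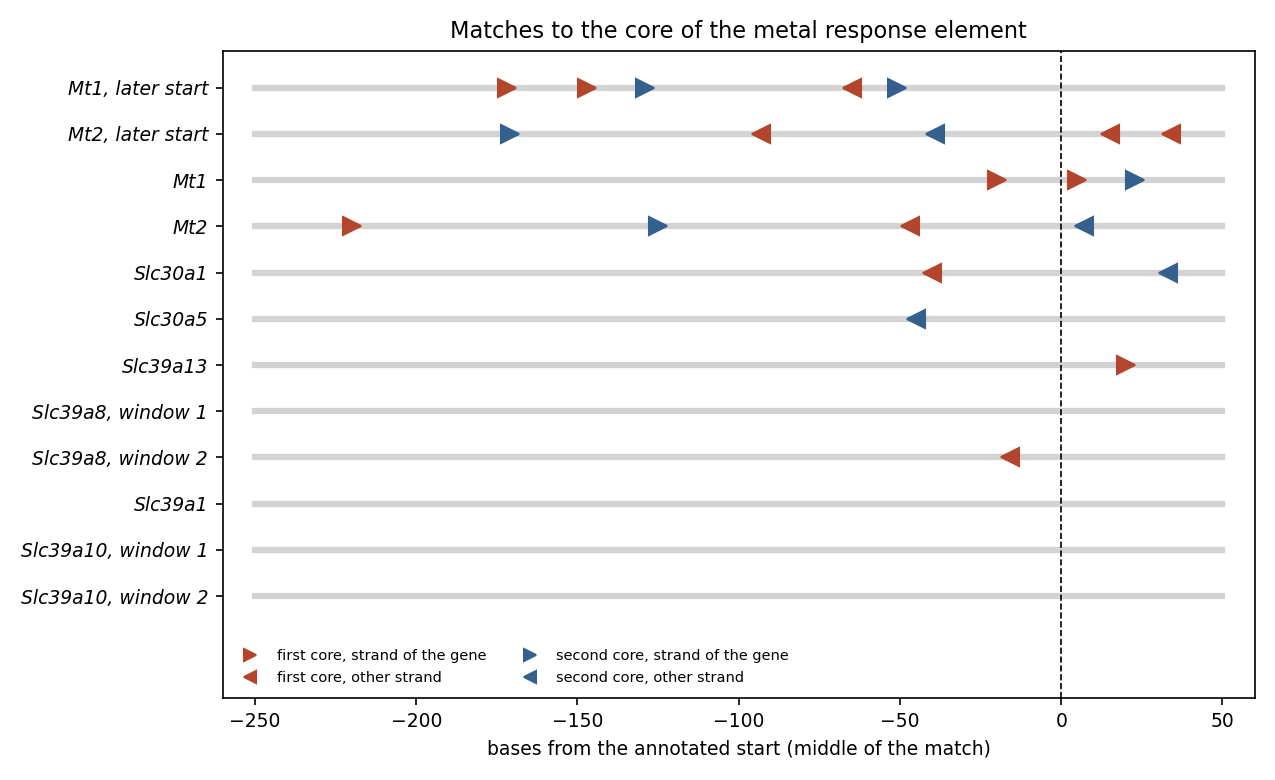
Positions of the matches (triangles, middle of the match) in bases from the annotated start (horizontal axis, dashed line at 0) in windows of 250 bases before to 50 bases after it, with 1 grey line per window. Colour shows which of the 2 cores matched and the direction of the triangle shows the strand. The windows of the later starts of *Mt1* and *Mt2* hold 5 matches each and those of *Slc39a10* and *Slc39a1* none.

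MTF-1 and genes known to respond to it were then read together. The list had 9 genes, of which *Slc39a10*, *Slc30a1*, *Mt1* and *Mt2* are described above. *Mtf1* itself had 14.0, 14.2 and 14.1 CPM in *Hbb*-cKO and 13.0, 14.2 and 15.6 CPM in WT, with overlapping groups. *Slc39a10* was the only gene of the 9 that passed the threshold in edgeR, but it was already known to pass when it was picked. Of the 5 genes that are not members, 0 passed in edgeR or DESeq2, where 0.105% and 1.45% of all tested genes did. Among these 5, 1 log2 fold change was positive and 4 were negative. *Ndrg1*, a stress-induced gene, had 40.2, 44.6 and 40.8 CPM in *Hbb*-cKO and 49.5, 48.6 and 55.6 CPM in WT, a log2 fold change of -0.29 (unadjusted p = 0.0280, adjusted p = 0.411 by edgeR). *Selenow*, a selenoprotein gene, had a log2 fold change of 0.28, and *Csrp1*, which encodes a cytoskeletal LIM protein, one of -0.06, and neither passed.

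Counted over the 10 members, 5 log2 fold changes were positive, where 47.5% of those of all tested genes were. In edgeR, 1 of 10 passed the threshold, where 0.105% of all tested genes did in either direction and 0.0699% did with a lower level in *Hbb*-cKO. In DESeq2, 2 of 10 passed, where 1.45% of all tested genes did. The groups did not overlap in 3 of 10 members, where 17.7% of all tested genes did not overlap. Of these 3, *Slc30a1* and *Slc30a5* were higher in *Hbb*-cKO (8.7% of all tested genes) and *Slc39a10* was lower (8.96%). Since the members were chosen with this comparison known, these shares say nothing further. The median log2 fold change was 0.06 over the members and -0.01 over all tested genes, and 6 of the 10 lay within 0.20 of 0.

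The rest of the ZIP, ZnT and metallothionein families comprised 18 genes, of which 10 passed the filter on low counts. None of these 10 passed the threshold in edgeR or DESeq2, and none was under 0.05 before adjustment. Of all tested genes, 0.105% passed in edgeR, 1.45% passed in DESeq2 and 10.1% were under 0.05 before adjustment. *Slc30a7*, an exporter into the Golgi, was the only 1 of these 10 whose groups did not overlap, where 17.7% of all tested genes did not overlap. It had 44.0, 44.1 and 42.7 CPM in *Hbb*-cKO and 41.6, 35.7 and 42.5 CPM in WT. *Slc39a9* had the largest negative value, a log2 fold change of -1.58 (SE 0.74), and it rested on 1 library. It had 5.80, 8.82 and 5.43 CPM in *Hbb*-cKO and 7.31, 44.0 and 8.94 CPM in WT. *Slc39a11* had a log2 fold change of 0.27 (SE 0.14) and *Slc39a3* one of -0.13 (SE 0.10). *Mt3*, the metallothionein known from brain, had 13.5, 4.06 and 6.84 CPM in *Hbb*-cKO and 7.79, 10.5 and 11.1 CPM in WT. *Slc30a8*, the exporter of insulin granules, had 0 counts in all 6 libraries, which allows a level of up to 0.142 to 0.170 CPM in *Hbb*-cKO and 0.173 to 0.182 CPM in WT.

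**Figure D5:**
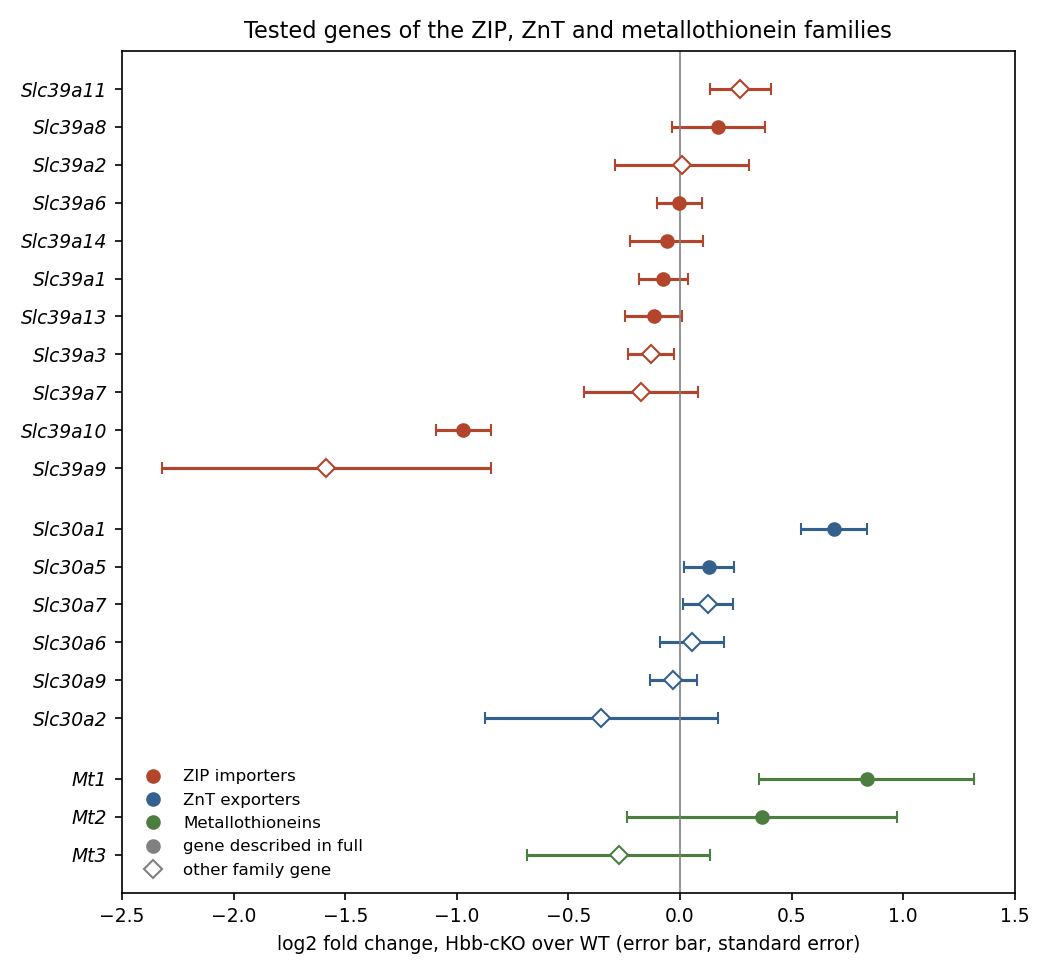
Log2 fold change of *Hbb*-cKO over WT (horizontal axis) with its standard error for each tested gene of the 3 families (vertical axis), importers above, exporters in the middle and metallothioneins below. Filled circles are the genes described in full and open diamonds the rest. *Slc39a10* at -0.97 and *Slc30a1* at 0.69 lie farther from 0 relative to their errors than the others, while *Slc39a9* at -1.58 and *Mt1* at 0.84 have wide errors.

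Levels between genes were compared as CPM per kilobase of transcript. Those of *Slc39a13* and *Slc39a6* may hold reads of the coding genes that overlap them. In *Hbb*-cKO the order was *Slc39a13* at 83.3, *Slc39a1* at 53.7, *Mt1* at 52.2, *Slc39a14* at 36.9, *Mt2* at 35.9, *Slc30a5* at 25.1, *Slc39a6* at 10.1, *Slc39a10* at 4.69, *Slc30a1* at 2.89 and *Slc39a8* at 0.926 CPM per kilobase. In WT, *Slc39a13* at 90.3 and *Slc39a1* at 56.6 were again the highest and *Slc30a1* at 1.79 and *Slc39a8* at 0.822 the lowest. Between them in WT came *Slc39a14* at 38.5, *Mt1* at 29.2, *Mt2* at 27.7 and *Slc30a5* at 22.9 CPM per kilobase. The ranges of neighbours in the order overlapped from *Slc39a1* to *Slc30a5* in *Hbb*-cKO and from *Slc39a14* to *Slc30a5* in WT. *Slc39a10* lay next to *Slc39a6* in both groups, at 4.69 against 10.1 CPM per kilobase in *Hbb*-cKO without overlap, and at 9.19 against 10.2 CPM per kilobase in WT with overlap. With the coding length in place of the transcript length, *Mt1* came first in *Hbb*-cKO. Its range of 111 to 230 CPM per kilobase overlapped that of *Slc39a13*, at 137 to 151. In WT, *Slc39a10* at 20.2 then lay above *Slc39a6* at 17.2 CPM per kilobase without overlap, so the WT order of this pair turned.

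Genes that use zinc or share its carriers were counted from lists of their own. The 5 proteases tied to ZIP8 and MTF-1 in chondrocytes had 4 tested members and none passed. *Mmp13*, the main collagenase of cartilage, had 278, 158 and 184 CPM in *Hbb*-cKO and 156, 177 and 194 CPM in WT. *Adamts5*, an aggrecanase, had 39.0, 32.5 and 32.3 CPM in *Hbb*-cKO and 36.6, 30.5 and 42.9 CPM in WT, and *Mmp3* stayed under 3 CPM. Of 8 secretory enzymes that hold zinc, none passed and 2 were under 0.05 before adjustment, where 10.1% of all tested genes were. These were *Adamts4*, another aggrecanase, at 31.1, 22.4 and 25.8 CPM in *Hbb*-cKO and 19.2, 19.1 and 20.5 CPM in WT, and *Mmp14*, a membrane protease, at 863, 750 and 744 CPM in *Hbb*-cKO and 640, 650 and 574 CPM in WT. *Alpl*, the alkaline phosphatase of mineralizing tissue that receives zinc through ZnT5, had a log2 fold change of 0.34 (SE 0.16, adjusted p = 0.532 by edgeR).

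None of 10 copper handling genes and none of 8 manganese and iron transporters passed the threshold in edgeR or DESeq2. In edgeR, 1 of the 10 and 1 of the 8 were under 0.05 before adjustment, where 10.1% of all tested genes were. The copper exporter *Atp7b* was the 1 copper gene, at 0.0568, 0.301 and 0.613 CPM in *Hbb*-cKO and 1.38, 1.22 and 0.923 CPM in WT, which is close to the limit of counting. *Slc31a1*, the copper importer, had a log2 fold change of 0.19 and *Atox1*, a copper chaperone, one of -0.16. *Slc11a2*, an importer of iron, was the 1 of the 8, with 32.4, 31.4 and 29.5 CPM in *Hbb*-cKO and 26.4, 23.9 and 27.3 CPM in WT. *Slc40a1*, the iron exporter ferroportin, had a log2 fold change of 0.19 and *Slc25a37*, the importer of iron into mitochondria, one of -0.43.

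The genes most like *Slc39a10* across the 6 libraries were sought among 14411 genes whose log2 CPM averaged 1 or more, by the root mean square difference of log2 CPM centred on each gene's mean. They were *Hjurp* at 0.123, *Tbx6* at 0.132, *Ccdc62* at 0.141, *Slc35g2* at 0.152 and *Znf41-ps* at 0.153 log2 units. Of these 5, *Hjurp* passed the threshold in edgeR, which 0.105% of all tested genes did, with a log2 fold change of -0.85 and an adjusted p of 0.0346. Since the 5 were picked for levels close to those of *Slc39a10* in the same libraries, a like fold change follows from the choice. The genes most like *Mt1* were *Rsrc1* at 0.158, *Suclg2* at 0.169, *Mapk1ip1* at 0.236, *Mt2* at 0.241 and *Add3* at 0.298 log2 units. *Mt2*, the neighbour of *Mt1*, was thus the fourth nearest of these genes, and none of the 5 passed the threshold in edgeR.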

How the data were processed

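RNA of knee joint cartilage was sequenced in 3 *Hbb*-cKO and 3 WT libraries. The authors deposited whole-number counts per gene that were not normalized. Tools named in the submitters' processing notes are HISAT2 2.1.0, fastp 0.19.5, CASAVA 1.8, edgeR and StringTie. The settings, the genome build and the strand were not given in the sources used here. Positions of genes in the table matched GENCODE M21 (GRCm38) for 99.4% of the identifiers found there. Counts of any pair of libraries differed by more than sampling noise.

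The members and gene lists were chosen with earlier results of these data known. Genes were filtered in edgeR 4.0.16 (R 4.3.3, limma 3.58.1; minimum count 10, minimum total 15), scaled by TMM, and tested by group with the robust quasi-likelihood test and Benjamini-Hochberg adjustment at a threshold of 0.05. A prior count of 2 entered the log2 CPM, and the SE is the absolute log2 fold change over the square root of F. Tables were handled in pandas 2.3.3. The text names all 10 members, up to 3 other genes per list with the smallest unadjusted p, and 5 genes nearest to *Slc39a10* and to *Mt1*. Genes named beside these, among them overlapping genes and *Mtf1*, were chosen after their values were seen. Alternatives were RLE factors, DESeq2 1.42.0, other filters, TMM factors without globins, a replicate block, muscle and Y-linked covariates, coding length and leaving out each library. The unpaired test was kept, because the deviations of same-numbered libraries correlated at only -0.03, -0.11 and -0.03. With 3 libraries per group, this cannot exclude that the numbers mark pairs.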

Additional observations from a re-analysis of the deposited data

How the results depend on the processing

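The number of genes past the threshold was 18, and it was 249 in DESeq2, 60 without a filter, 8 with the muscle score and 48 with Y-linked expression as a covariate, and 1 to 39 when a library was left out. Of the members, 1 passed as reported, 2 in DESeq2, 0 with RLE factors, 0 with TMM factors without globins, 0 with the muscle score, 0 with Y-linked expression, and 0 to 1 when a library was left out. *Slc39a10* kept its direction in all 14 alternatives and passed in 4 of them. Its log2 fold change was -0.96 with RLE factors and with TMM factors without globins (adjusted p = 0.0513 for both), -1.01 with the muscle score (adjusted p = 0.272) and -1.01 with Y-linked expression (adjusted p = 0.0618), and -1.04 to -0.89 (adjusted p = 0.0397 to 0.280) when a library was left out. *Slc30a1* passed in DESeq2 only, at 0.58 to 0.78 over the 14 alternatives. Under the replicate block 4 genes and 0 members passed, with *Slc39a10* at -0.97 (adjusted p = 0.214). The deviations of same-numbered libraries correlated at -0.03, -0.11 and -0.03. The numbers were not read as pairs, though so few libraries cannot exclude pairing. Changes of sign were found among members that never passed. *Slc39a6* was at 0.0037 with RLE factors, 0.0035 in DESeq2, 0.011 without a filter, 0.0065 with TMM factors without globins and 0.055 with Y-linked expression. *Slc39a14* was at 0.017 with the muscle score, and with Y-linked expression *Slc39a1* was at 0.035, *Slc39a13* at 0.040 and *Mt2* at -0.30. Without single libraries, *Slc39a6* ranged from -0.032 to 0.028, *Slc39a14* from -0.17 to 0.084 and *Slc39a13* from -0.20 to 0.0036. *Mt1* ranged from 0.30 with Y-linked expression to 2.05 with the muscle score and from 0.60 to 1.51 without single libraries, *Mt2* reached 1.96 with the muscle score and ranged from 0.05 to 1.35 without single libraries, and the log2 difference of the metallothionein sum from 0.55 to 1.39. With the coding length, 10 of the 20 places in the order of levels were kept. The cause of these shifts was not tested. *Slc39a8* rested on 54 to 70 counts in *Hbb*-cKO and 42 to 51 in WT.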

Other observations

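Genes of the IL-6 and STAT3 response, another known route to metallothionein expression, had 7 of 9 members tested, and none passed the threshold in edgeR or DESeq2, with 2 under 0.05 before adjustment, where 10.1% of all tested genes were. *Cebpd*, a transcription factor of the acute phase, had 31.0, 30.8 and 28.6 CPM in *Hbb*-cKO and 36.7, 36.1 and 58.8 CPM in WT, so WT replicate 3 was again the highest. *Junb* went the other way, with 47.2, 44.3 and 41.2 CPM in *Hbb*-cKO and 36.9, 39.1 and 35.5 CPM in WT. *Lcn2*, which neutrophils also express, had 6.82, 2.36 and 7.13 CPM in *Hbb*-cKO and 4.07, 2.49 and 3.52 CPM in WT, lowest in *Hbb*-cKO replicate 2 among the *Hbb*-cKO libraries, as were *Mt1* and *Mt2*.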
